A study of Mus musculus with 20 samples.

Results

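The loci of Klf2, Klf4 and Klf5 were followed through reprogramming of mouse fibroblasts. Their members were every ATAC-seq peak within 80 kb of the 5 prime end of each gene, which lies at position 72319033 of chromosome 8 on the plus strand for Klf2, at 55532466 of chromosome 4 on the minus strand for Klf4 and at 99298691 of chromosome 14 on the plus strand for Klf5 (mm10, GENCODE M21). Overlapping peaks (at least 1 bp) of the 20 libraries were joined to form regions, and open means here that the library has a peak in the region. Of 335775 regions in all, 112 belonged to the loci, with 47 at Klf2, 28 at Klf4 and 37 at Klf5, and they held 553 of 1581898 peaks. ATAC-seq reads out accessible DNA by the cuts that Tn5 transposase makes in it, and was performed on mouse embryonic fibroblasts (MEFs, 1 library), on embryonic stem cells (ESCs, 3 libraries, kept in N2B27+2iL without feeders) and on MEFs carrying the OG2 reporter, in which an Oct4 enhancer and promoter drive GFP. These MEFs received retroviral Oct4 together with native Nanog (the Nanog path) or with NanogN70 (the NanogN70 path), which is NANOG carrying at its N-terminus, through a linker, the N-terminal stretch of the BAF chromatin remodeler subunit SS18 that contacts BRG1. Both paths have 1 library on each of 8 days, with day 0 at the end of 2 rounds of infection and further samples on days 1, 3 and 5, on days 7 and 8, and on days 10 and 12. Cells were kept in iCD3 medium and after day 7 in N2B27+2iL. No Klf gene was delivered. The 3 ESC samples carry ESC in their titles but MEF as their source, and the titles were followed.

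Krüppel-like factors bind GC-rich DNA through C-terminal zinc fingers. KLF2, KLF4 and KLF5 are expressed together in mouse ESCs, where they occupy many of the same sites and can stand in for one another in self-renewal. Klf4 is a direct target of STAT3 downstream of leukemia inhibitory factor (LIF), Klf2 is kept active when MEK is inhibited, and Klf4 is one of the factors of the original reprogramming cocktail. Outside ESCs, Klf2 is used in T lymphocytes and endothelium, and Klf4 and Klf5 in epithelia.

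Each region was placed in a class by its state in the end-point cells. ESC-only regions lacked a MEF peak and had one in 2 or 3 ESC libraries. MEF-only regions had a MEF peak and none in ESCs, shared regions had a MEF peak and one in 2 or 3 ESC libraries, and the remainder were called other. The loci held 31 ESC-only, 19 MEF-only, 12 shared and 50 other regions. ESC-only regions made up 25.5% of the regions at Klf2, 17.9% at Klf4 and 37.8% at Klf5, beside 16.5% of all regions. The height of a peak is its pileup, the number of tags over the summit, and a relative pileup is that number divided by the median pileup of the same library over the 14213 regions open in all 20 libraries. This median ran from 16 to 60 tags in the time course, and the numbers of peaks from 44126 to 107038. Depth is unknown, as no read numbers were used here, so a region without a peak may have been accessible below the detection limit of its library. A bulk library cannot tell fewer cells with an open site apart from a less accessible site in each cell.

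The labelled cell types were checked at the promoters of marker genes, within 2 kb of the gene start. The summed relative pileup of 10 fibroblast markers was 10.5 in MEFs and 4.17 to 4.44 in ESCs, and that of 10 ESC markers was 1.10 in MEFs and 11.5 to 11.7 in ESCs. In the time course the fibroblast sum ran from 2.97 to 9.33 and the ESC sum from 0.688 to 3.17. The NanogN70 library of day 3 stood apart. In it, 14 of 15 T lymphocyte markers and 10 of 10 general leukocyte markers had a promoter peak, against 1 to 3 and 1 to 4 in the other 15 time course libraries. Their summed relative pileups were 13.9 and 8.08, against 0.75 to 1.98 and 0.313 to 1.39, and no other library of the time course had a promoter peak at Cd3d, Cd3e, Cd3g, Lck or Zap70. Regions seen nowhere else made up 23.3% of those in this library, against 1.45% to 14.3% in the other 15. Endothelial markers had a promoter peak at 2 to 4 of 10 genes with Nanog and 3 to 5 with NanogN70, with summed relative pileups of 0.667 to 2.5 and 0.929 to 2.44. For 10 epithelial markers these values were 1 to 7 genes and 0.313 to 1.81 with Nanog, and 3 to 8 genes and 1.19 to 2.69 with NanogN70. The part of these cell types in the results below was not tested, and the main counts of ESC-only regions are given with and without the day 3 library.

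The plot of open regions by library shows the 3 loci over the time course.

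**Figure D1:**
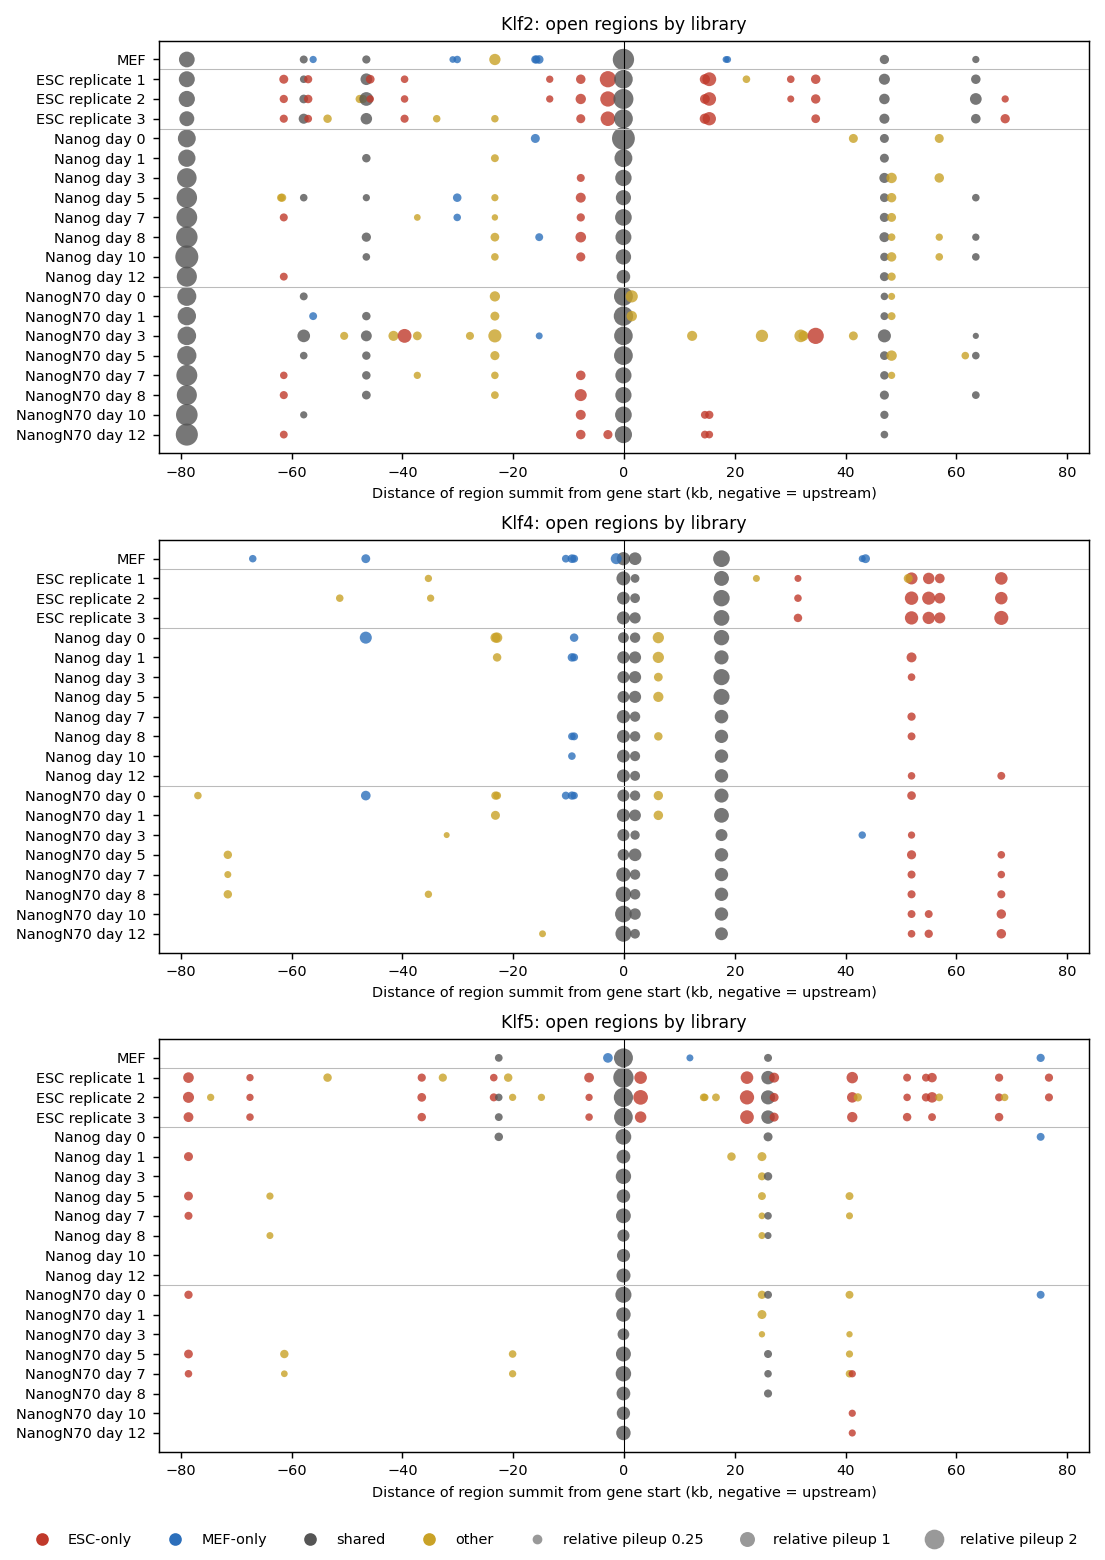
Open regions within 80 kb of the starts of Klf2, Klf4 and Klf5 in the 20 libraries. The horizontal axis is the distance of the region's summit from the gene start in kb (negative is upstream), each row is a library, the area of a point grows with relative pileup and its colour gives the class. The ESC-only regions lie downstream of Klf4 between 31.4 and 68.1 kb and on both sides of Klf2 and Klf5, and the NanogN70 day 3 row at Klf2 holds 7 regions seen in no other library.

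The 300 bases at the summits of the distal elements on which the comparison of the paths turned are given first. They were read from GRCm38 (the assembly of mm10), plus strand, and centred on the highest ESC summit. Capitals mark any match, on either strand, to 8 short consensus letters: KLF (GGGNGTGG), OCT (ATTTGCAT), SOX (ACAATG), STAT (TTCCNGGAA), ESRRB (TCAAGGTCA), AP-1 (TGANTCA), TEAD (GGAATG) and NFY (CCAAT). The Klf4 elements shown are the 3 ESC-only regions of the locus that opened in the time course, all of them on more days with NanogN70 than with Nanog.
Klf4 68.1 kb downstream, chr4:55464193-55464492: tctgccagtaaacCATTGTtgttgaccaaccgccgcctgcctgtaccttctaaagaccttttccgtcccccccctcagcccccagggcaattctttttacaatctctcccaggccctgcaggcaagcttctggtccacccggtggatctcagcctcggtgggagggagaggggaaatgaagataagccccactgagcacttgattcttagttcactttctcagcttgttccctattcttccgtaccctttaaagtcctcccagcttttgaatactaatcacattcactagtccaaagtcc
Klf4 55.0 kb downstream, chr4:55477288-55477587: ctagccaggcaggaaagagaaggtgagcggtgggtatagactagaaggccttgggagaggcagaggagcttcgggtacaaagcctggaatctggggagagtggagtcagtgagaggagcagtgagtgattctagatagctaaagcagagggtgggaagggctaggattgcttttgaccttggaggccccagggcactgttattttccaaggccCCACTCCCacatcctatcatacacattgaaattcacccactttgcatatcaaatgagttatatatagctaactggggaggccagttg
Klf4 51.9 kb downstream, chr4:55480463-55480762: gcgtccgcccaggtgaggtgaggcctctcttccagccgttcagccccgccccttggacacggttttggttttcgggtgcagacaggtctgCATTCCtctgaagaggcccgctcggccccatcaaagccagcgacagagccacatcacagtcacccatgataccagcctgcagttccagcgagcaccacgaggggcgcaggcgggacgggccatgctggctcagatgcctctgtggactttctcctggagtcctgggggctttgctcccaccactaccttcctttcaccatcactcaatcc

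At Klf2 an element that opened in both paths is set beside the ESC-only region of the locus with the highest mean ESC score, which opened in a single time course library.
Klf2 7.8 kb upstream, chr8:72311114-72311413: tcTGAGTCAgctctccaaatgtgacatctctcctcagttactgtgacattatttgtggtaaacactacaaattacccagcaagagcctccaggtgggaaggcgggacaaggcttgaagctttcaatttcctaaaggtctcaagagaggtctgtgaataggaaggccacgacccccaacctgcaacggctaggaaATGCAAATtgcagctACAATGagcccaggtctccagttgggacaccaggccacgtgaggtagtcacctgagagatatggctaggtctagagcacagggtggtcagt
Klf2 2.9 kb upstream, chr8:72316028-72316327: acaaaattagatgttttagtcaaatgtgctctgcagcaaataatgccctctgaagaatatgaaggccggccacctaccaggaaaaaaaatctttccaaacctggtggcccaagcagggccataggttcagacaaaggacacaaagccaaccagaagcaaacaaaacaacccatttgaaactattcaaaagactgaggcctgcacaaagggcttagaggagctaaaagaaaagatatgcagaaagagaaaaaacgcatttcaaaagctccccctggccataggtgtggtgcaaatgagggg

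At Klf5 the ESC-only region with the highest mean ESC score, which had no peak on any day, is set beside the ESC-only region that had a peak with NanogN70 alone.
Klf5 22.2 kb downstream, chr14:99320765-99321064: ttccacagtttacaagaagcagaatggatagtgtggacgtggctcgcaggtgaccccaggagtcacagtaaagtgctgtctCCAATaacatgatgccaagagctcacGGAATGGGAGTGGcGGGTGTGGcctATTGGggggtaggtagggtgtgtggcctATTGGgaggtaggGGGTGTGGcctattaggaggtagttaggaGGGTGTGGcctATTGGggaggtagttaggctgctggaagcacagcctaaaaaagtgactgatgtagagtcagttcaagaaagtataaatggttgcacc
Klf5 41.2 kb downstream, chr14:99339748-99340047: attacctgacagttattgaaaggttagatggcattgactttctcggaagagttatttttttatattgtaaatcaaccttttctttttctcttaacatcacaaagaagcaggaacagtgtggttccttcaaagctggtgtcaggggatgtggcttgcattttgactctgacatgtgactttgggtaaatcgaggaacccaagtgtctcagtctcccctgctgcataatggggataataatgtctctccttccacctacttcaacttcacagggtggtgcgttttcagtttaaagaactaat

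The data at Klf4 showed a cluster of ESC-only elements far downstream that gained peaks with NanogN70 on more days than with Nanog, and a promoter that was open in every library and higher with NanogN70 late in the time course. Clustered enhancers downstream of Klf4 are known in mouse ESCs. The 5 ESC-only regions of the locus all lay downstream of the gene, 4 of them between 51.9 and 68.1 kb. The outermost of these 4, in an intron of the lincRNA Gm12510 (chr4:55463796-55464722), had pileups of 29, 34 and 34 tags in ESCs and, at 937, the highest mean ESC score (-10 log10 of the peak p-value) of the 31 ESC-only regions. It was open with NanogN70 on days 5, 7, 8, 10 and 12, at 5, 8, 7, 12 and 18 tags, and with Nanog on day 12 alone, at 6 tags. Its relative pileup with NanogN70 was 0.217, 0.211 and 0.269 on days 5, 7 and 8 and 0.429 and 0.439 on days 10 and 12, which on day 12 was 44.3% of the ESC mean of 0.991 ± 0.16 (SD, n = 3). With Nanog the day 12 value was 0.25, or 25.2% of that mean.

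The intergenic element 55.0 kb downstream (chr4:55477101-55478308), at 23, 38 and 25 tags in ESCs, was open with NanogN70 on days 10 and 12, at 7 and 12 tags, and on no day with Nanog. On day 12 it stood at 34.0% of the ESC level. The element 51.9 kb downstream (chr4:55480077-55480816), at 26, 40 and 30 tags in ESCs, was open on 7 days with NanogN70, at 7 to 11 tags, and on 5 days with Nanog, at 5 to 11 tags. Its first peak came on day 0 in the NanogN70 path and on day 1 in the Nanog path, and on day 12 its relative pileups of 0.22 and 0.208 lay close together, at 22.7% and 21.6% of the ESC mean. The element 57.0 kb downstream, at 15, 23 and 19 tags in ESCs, and the one 31.4 kb downstream, at 5, 8 and 9 tags, had no peak on any day of either path. The cluster was therefore opened in part, at less than the ESC height. The NanogN70 summits 55.0 kb downstream lay 45 to 332 bp from the highest ESC summit. At 51.9 kb the distances were 0 to 225 bp with NanogN70 and 1 to 214 bp with Nanog. The percentages there compare heights within a region and may not compare 1 position.

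At the Klf4 start (chr4:55532140-55533582) the pileup was 40 tags in MEFs and 37, 36 and 29 in ESCs. By day, the highest summit within 2 kb of the start had relative pileups of 0.625, 0.875, 0.826, 0.821, 1.03, 0.969, 0.957 and 0.958 with Nanog. With NanogN70 they were 0.833, 1.0, 0.833, 0.739, 1.24, 1.46, 1.71 and 1.56. On days 7 to 12 the NanogN70 values lay above all Nanog values of the time course and above the ESC mean of 1.03 ± 0.11 (SD, n = 3) and the MEF value of 1.03. The mean of days 7 to 12 was 1.49 with NanogN70 and 0.977 with Nanog, and that of days 0 to 5 was 0.851 and 0.787. The split at day 7 was not set beforehand, and the share of all promoters with such a late difference was not counted. The mean daily difference, NanogN70 minus Nanog in log2(relative pileup + 0.1), was 0.33 with an SD of 0.32 over 8 days, and 7 of the 8 days were higher. A two-sided exact sign-flip permutation test over the 8 days gave p = 0.0234, and adjustment over the 15912 promoters tested gave an adjusted p = 0.312 by this exact test, so the difference did not pass the threshold of 0.05. No promoter did, the smallest adjusted p of the exact test being 0.276, while at an unadjusted exact p under 0.05 6.83% of promoters were higher and 6.24% lower with NanogN70. With 8 days the smallest p that the exact test can give is 0.00781. An adjusted p under 0.05 would need more promoters at that smallest p than were under 0.05 before adjustment. Failing the adjustment was thus nearly fixed by the design, and no conclusion is drawn from it for a single promoter. The days of 1 time course are not biological replicates, and the exact test measures only the spread between days.

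**Figure D2:**
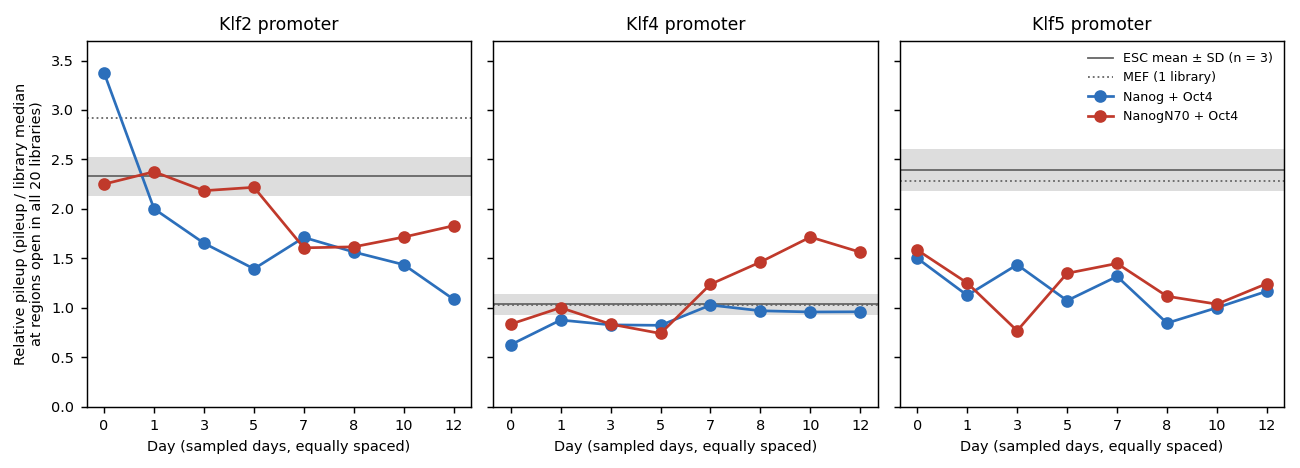
Relative pileup (pileup divided by the median of the same library at regions open in all 20 libraries) at the promoters of Klf2, Klf4 and Klf5 by sampled day. Points joined by lines are single libraries of the Nanog and NanogN70 paths, the grey band is the ESC mean ± SD of 3 libraries and the dotted line is the MEF library. At Klf4 the NanogN70 values of days 7 to 12 run from 1.24 to 1.71 and the Nanog values from 0.957 to 1.03.

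Klf4 regions of the other class also differed in their number of open days. A region 6.2 kb downstream (chr4:55525972-55526579), with no peak in MEFs or ESCs, was open with Nanog on days 0, 1, 3, 5 and 8, at 11, 11, 8, 15 and 10 tags, and with NanogN70 on days 0 and 1, at 10 and 7 tags. A region 71.5 kb upstream (chr4:55603836-55604054), also absent from MEFs and ESCs, was open with NanogN70 on days 5, 7 and 8, at 7, 6 and 8 tags, and never with Nanog. Together with the element 68.1 kb downstream these were the Klf4 regions open on at least 3 more days in one path. Among all other-class regions 5.11% were open on at least 3 more days with NanogN70 and 3.04% with Nanog, and these values were 5.23% and 0.615% among all ESC-only regions.

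Of 8 MEF-only regions at Klf4, 3 (37.5%) had no peak in either path, beside 44.4% of all MEF-only regions. The region 46.6 kb upstream, in an intron of Gm12511 and with the highest MEF score of the MEF-only regions of the locus (486), had 14 tags in MEFs, 13 and 11 on day 0 of the Nanog and NanogN70 paths, and no peak later. The region 43.6 kb downstream (14 tags in MEFs) had none at any time, and the region 9.4 kb upstream (13 tags) had 5 to 7 tags on days 1, 8 and 10 with Nanog and 7 tags on day 0 with NanogN70. A MEF-only region 1.4 kb upstream of the start, at 25 tags in MEFs, was absent from all 16 time course libraries. By contrast, the shared element 17.6 kb downstream (chr4:55514530-55515280) was open in all 20 libraries.

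The data at Klf2 showed 3 ESC-only elements close to the gene that had peaks with NanogN70 on days 10 or 12 and none with Nanog, and others that opened in both paths. The intergenic region 2.9 kb upstream (chr8:72316060-72316831) had the highest mean ESC score of the ESC-only regions of the locus (514), with 52, 54 and 37 tags in ESCs. It was open in 1 time course library, NanogN70 day 12, at 16 tags and 27.1% of its ESC level of 1.44 ± 0.18 (SD, n = 3). The neighbouring regions 14.6 kb (chr8:72333350-72334252) and 15.4 kb downstream (chr8:72334256-72334696) had 17, 18 and 16 tags and 36, 41 and 30 tags in ESCs. With NanogN70 they had 7 and 8 tags on day 10 and 10 and 9 tags on day 12, and they stood at 47.0% and 20.3% of their ESC levels on day 12. None of the 3 regions had a peak with Nanog on any day.

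The region 7.8 kb upstream (chr8:72310829-72311499), at 14, 21 and 11 tags in ESCs, opened earlier with Nanog. There it was open on days 3, 5, 7, 8 and 10, at 6, 14, 11, 19 and 9 tags, and had no peak on day 12. With NanogN70 it was open on days 7, 8, 10 and 12, at 17, 21, 14 and 18 tags. Its relative pileup reached 0.594 with Nanog and 0.808 with NanogN70, both on day 8 and both above the ESC mean of 0.456 ± 0.088 (SD, n = 3), and on day 12 it was at 96.2% of that mean with NanogN70. The peaks did not sit at the same place, however. The 7 Nanog summits of the region lay 151 to 306 bp and the 4 NanogN70 summits 147 to 277 bp from the highest ESC summit, so the percentage compares heights within 1 region and not at 1 position. The weaker region 61.4 kb upstream (12, 11 and 8 tags in ESCs) was open on days 7 and 12 with Nanog, at 10 and 6 tags, and on days 7, 8 and 12 with NanogN70, at 8, 7 and 10 tags.

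**Figure D3:**
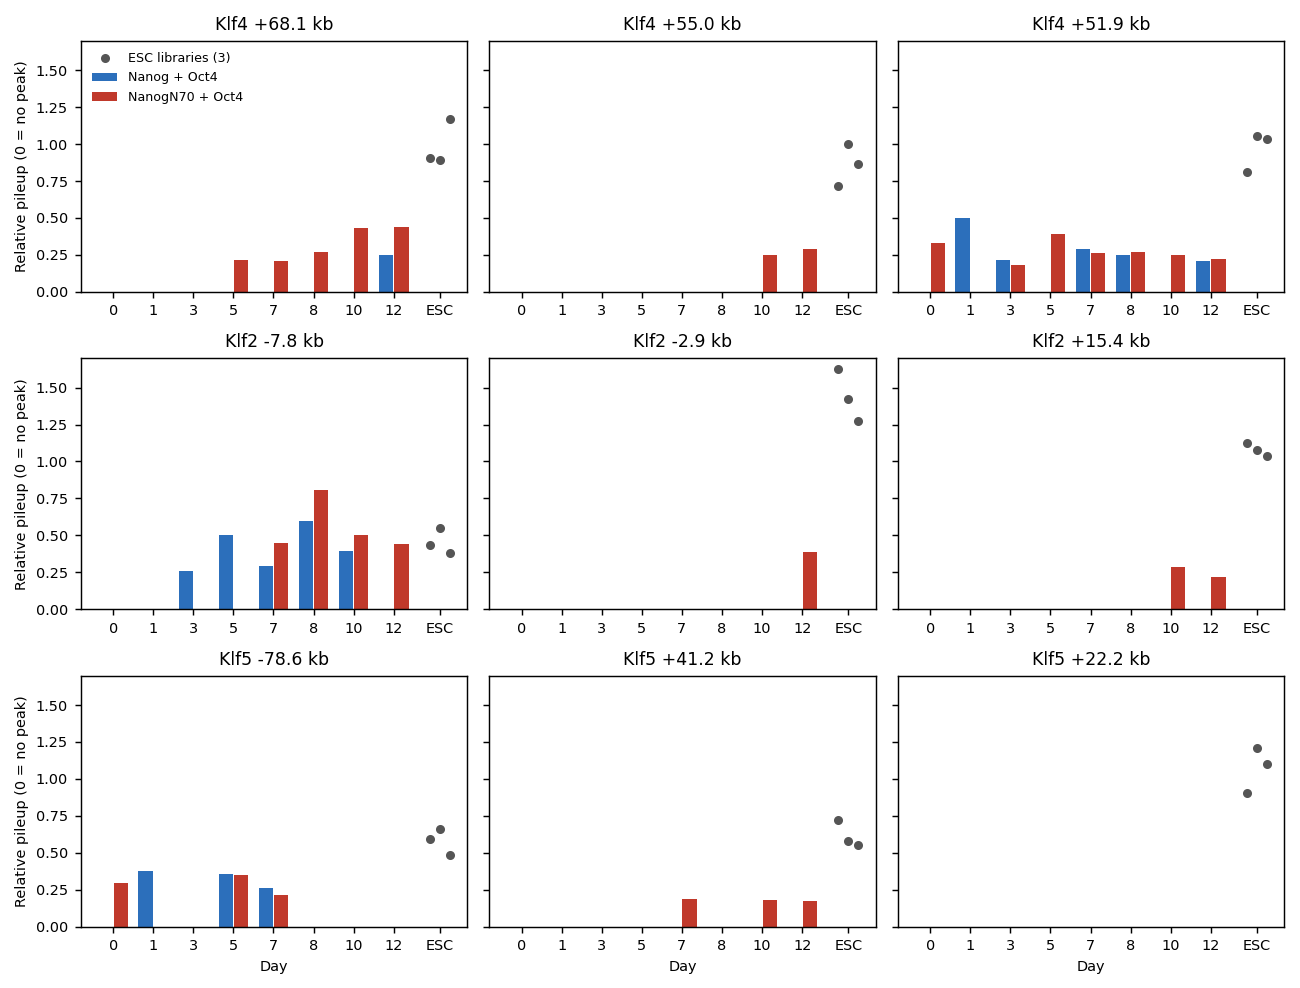
Relative pileup by day of 9 ESC-only elements of the Klf4, Klf2 and Klf5 loci. Bars are single libraries of the Nanog (blue) and NanogN70 (red) paths, a missing bar is a library without a peak, and grey points are the 3 ESC libraries. The Klf2 element 7.8 kb upstream reaches 0.808 with NanogN70 on day 8, and the Klf5 element 22.2 kb downstream has no bar.

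At Klf2 the day 3 library of the NanogN70 path stood apart as well. It had 19 open regions there, where the other 15 libraries of the paths had 5 to 12, and 7 of them were open in no other library. This was 36.8% of its open regions at Klf2, beside 23.3% of all its open regions. Of all regions in the series, 5.32% were open in this library alone. Of these 7 the highest were 31.9 and 24.9 kb downstream, at 55 and 51 tags, in introns of Eps15l1. In all, 10 regions at Klf2, 3 at Klf4 and 1 at Klf5 were open in 1 time course library and nowhere else, which was 12.5% of the 112 regions, beside 22.5% of all regions. The Klf4 regions with the most tags among them lay 14.7 kb upstream (NanogN70 day 12, 6 tags) and 76.9 kb upstream (NanogN70 day 0, 5 tags), and the Klf5 region 19.4 kb downstream had 5 tags on day 1 with Nanog. Of the ESC-only regions, those 39.6 kb upstream (7, 8 and 8 tags in ESCs) and 34.6 kb downstream of Klf2 (14, 16 and 10 tags) were open in the day 3 library alone among the time course, at 68 and 97 tags. The day 3 summit lay 140 bp from the highest ESC summit in the upstream region and 831 bp from it in the downstream one. The T lymphocyte and leukocyte promoters were open in the same library, and their part in these peaks was not tested.

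Klf2 had 1 region open on at least 3 more days with NanogN70, a shared element 57.8 kb upstream (chr8:72260542-72261424), beside 5.96% of all shared regions. It had 6, 55, 5 and 5 tags on days 0, 3, 5 and 10 with NanogN70, and 6 tags on day 5 with Nanog. Without day 3 it was open on 3 days against 1 and no longer met the rule of 3 more days. A region 56.9 kb downstream (chr8:72375736-72376002), in an intron of Eps15l1 and absent from MEFs and ESCs, was open with Nanog on days 0, 3, 8 and 10, at 6, 10, 6 and 5 tags, and never with NanogN70. The MEF-only regions with the highest MEF scores, 15.3, 16 and 30.1 kb upstream, had 13, 11 and 8 tags in MEFs and were open on 1, 1 and 2 days with Nanog and on 1, 0 and 0 days with NanogN70.

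The Klf2 start (chr8:72318433-72319780) was open in all 20 libraries, at 114 tags in MEFs and 70, 97 and 65 in ESCs. Its relative pileups by day were 3.38, 2.0, 1.65, 1.39, 1.71, 1.56, 1.43 and 1.08 with Nanog and 2.25, 2.38, 2.18, 2.22, 1.61, 1.62, 1.71 and 1.83 with NanogN70. The value was 2.92 in MEFs and 2.33 ± 0.20 (SD, n = 3) in ESCs. The paths overlapped, and the lowest value was that of Nanog on day 12. The mean daily log2 difference was 0.20 with an SD of 0.41 over 8 days, 6 of 8 days being higher with NanogN70 (two-sided exact permutation test, p = 0.203, adjusted p = 0.606). It was 0.31 without day 0 (exact permutation p = 0.0469, adjusted p = 0.379), 0.13 without day 12 (exact permutation p = 0.406, adjusted p = 0.805) and 0.34 when scaled to the median of all summits of a library (exact permutation p = 0.18, adjusted p = 0.714).

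The data at Klf5 showed the most ESC-only regions and the fewest that opened. Of 14 ESC-only regions, 12 (85.7%) had no peak on any day of either path, beside 66.1% of all ESC-only regions. The never-opened ones included the element 22.2 kb downstream (chr14:99320772-99321126), at 29, 46 and 32 tags in ESCs, and the element 3.0 kb downstream (chr14:99301401-99301922), which covers a coding exon of Klf5 and had 29, 49 and 21 tags. The element 67.7 kb downstream, at 9, 10 and 9 tags, also had none. The element 41.2 kb downstream (chr14:99339607-99340820), at 23, 22 and 16 tags in ESCs, was open with NanogN70 on days 7, 10 and 12, at 7, 5 and 7 tags, and on no day with Nanog. On day 12 it reached 27.7% of its ESC level of 0.616 ± 0.090 (SD, n = 3). It was the Klf5 region open on at least 3 more days in one path. The element 78.6 kb upstream (chr14:99219553-99220227), in an intron of Pibf1 and at 19, 25 and 14 tags in ESCs, was open on 3 days in both paths. These were days 1, 5 and 7 with Nanog, at 6, 10 and 10 tags, and days 0, 5 and 7 with NanogN70, at 7, 8 and 8 tags, and it had no peak after day 7.

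The shared element 26.0 kb downstream of Klf5 (chr14:99324261-99325147) was much higher in ESCs, at 34, 45 and 31 tags, than in MEFs, at 10 tags. It was open on 4 days in each path, at 5 to 8 tags, and had no peak on days 10 and 12. The 3 MEF-only regions, 75.2 kb downstream, 11.9 kb downstream and 2.9 kb upstream, had 11, 6 and 18 tags in MEFs. The first had 4 and 6 tags on day 0 of the Nanog and NanogN70 paths, and no other peak was found at the 3 regions.

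The Klf5 start (chr14:99298077-99299519) was open in all 20 libraries, at 89 tags in MEFs and 84, 89 and 64 in ESCs. Relative pileup was 2.28 in MEFs and 2.39 ± 0.21 (SD, n = 3) in ESCs, and lay below both in every time course library. By day it was 1.5, 1.13, 1.43, 1.07, 1.32, 0.844, 1.0 and 1.17 with Nanog and 1.58, 1.25, 0.767, 1.35, 1.45, 1.12, 1.04 and 1.24 with NanogN70. NanogN70 was higher on 7 of 8 days and 0.534-fold of Nanog on day 3. The mean daily log2 difference was 0.04 with an SD of 0.37 over 8 days (p = 0.812 and adjusted p = 1 in the exact permutation test). The value depended on single days and on the scaling, being 0.16 without day 3 (higher on 7 of 7 days, exact permutation p = 0.0156, adjusted p = 0.342) and -0.0065 without day 8 (exact permutation p = 1, adjusted p = 1). Scaled to the median of all summits of a library it was 0.17 (exact permutation p = 0.0469, adjusted p = 0.572), where the median of all promoters was 0.15.

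Across the loci, ESC-only regions were counted by day. A region-day is 1 ESC-only region with a peak on 1 day. The NanogN70 path had 14 region-days at Klf2, 14 at Klf4 and 6 at Klf5, against 7, 6 and 3 with Nanog. This was 13.7% against 6.45% of the 248 possible at the 3 loci, beside 9.54% against 5.09% over all ESC-only regions of the genome. Without day 3 in both paths the counts were 12, 13 and 6 with NanogN70 and 6, 5 and 3 with Nanog, which was 14.3% against 6.45%, beside 9.31% against 5.35% over all ESC-only regions. Without day 12 the counts at Klf2 were 9 against 6, and without day 10 those at Klf4 were 11 against 6. With regions merged from 200 bp windows at the summits Klf4 had 20 against 14. The excess at Klf5 depended on the threshold, with 2 region-days in each path for peaks with a score of at least 100 and for equal numbers of top-scoring peaks per library. Within 40 kb of the start the difference was 0 at Klf4 and at Klf5. On at least 1 day, 12 of the 31 regions were open with NanogN70 (7 at Klf2, 3 at Klf4 and 2 at Klf5), beside 30.8% of all ESC-only regions, and 10 of 31 without the day 3 library, beside 26.9%. With Nanog 5 of 31 were open on at least 1 day (2, 2 and 1), beside 17.3%, and each of these 5 was also open with NanogN70. The shares at the loci, 38.7% with NanogN70 and 16.1% with Nanog, stood beside a like excess of NanogN70 over all ESC-only regions, and nothing particular to the loci was tested. The number open at the 3 loci on days 10 and 12 was 7 and 9 with NanogN70 (22.6% and 29.0%), beside 8.15% and 14.2% of all ESC-only regions. With Nanog it was 1 and 3 (3.23% and 9.68%), beside 3.72% and 5.85%. The libraries of these days also differed. Their median pileup at the regions open in all 20 libraries was 28 and 41 tags with NanogN70 and 23 and 24 with Nanog. Their numbers of peaks were 44126 and 54272 with NanogN70 and 50716 and 48843 with Nanog. The part of these library differences in the counts was not tested.

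**Figure D4:**
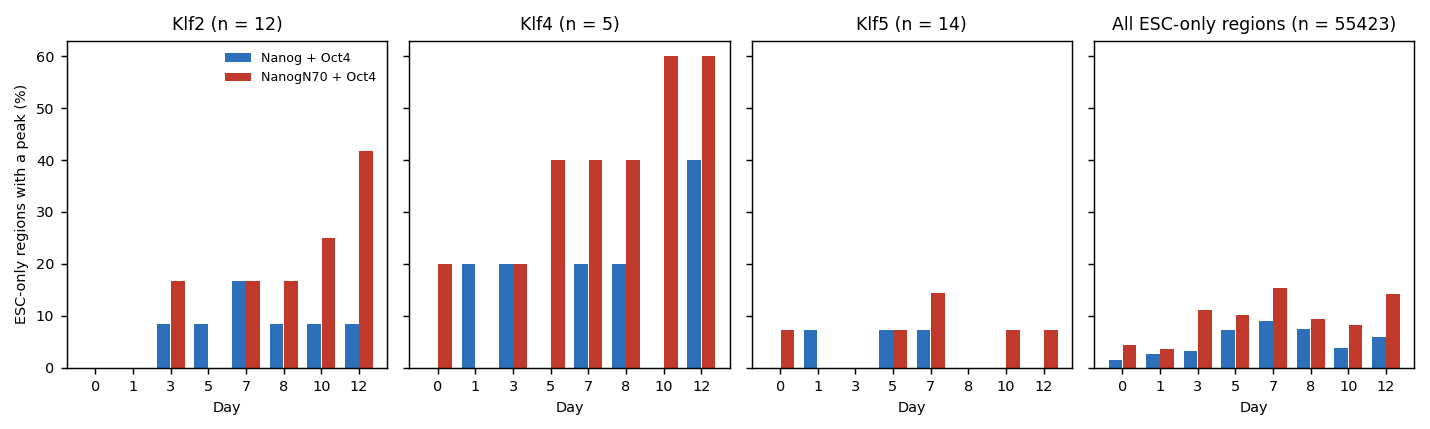
Share of ESC-only regions with a peak by day in the Nanog (blue) and NanogN70 (red) paths, at each locus and over the whole genome. Each bar is 1 library, and n is the number of ESC-only regions, 12 at Klf2, 5 at Klf4, 14 at Klf5 and 55423 in all. At Klf4 3 of 5 regions are open on days 10 and 12 with NanogN70, and at Klf5 at most 2 of 14 are open on any day.

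Regions that were open with NanogN70 on days 10 or 12 alone and never with Nanog numbered 4 of 31 (12.9%), namely the Klf2 elements 2.9 kb upstream and 14.6 and 15.4 kb downstream and the Klf4 element 55.0 kb downstream, beside 4.64% of all ESC-only regions. This choice of days was not set beforehand. The Klf2 elements 14.6 and 15.4 kb downstream nearly touch and had peaks on the same days. They may be a single accessible stretch, and they also count separately in the region-days of Klf2. Of the 31, 2 (6.45%) were open on at least 3 more days with NanogN70 and none on at least 3 more days with Nanog, beside 5.23% and 0.615% of all ESC-only regions. Of the 19 MEF-only regions none was open on at least 3 more days with Nanog, beside 8.03% of all MEF-only regions. The regions that opened had higher ESC scores, averaged over the 3 ESC libraries. The median was 299.6 for the 12 that opened in either path and 71.7 for the 19 that did not, beside 138 and 87.2 over all ESC-only regions. Without the NanogN70 day 3 library the medians were 356 for the 10 that opened and 87.9 for the 21 that did not, beside 144 and 87.7. The scores of both sets overlapped, from 104 to 937 for those that opened and from 39.2 to 384 for those that did not, the latter maximum being that of the Klf5 element 22.2 kb downstream.

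The motif letters differed between the elements printed above. In the Klf2 element 7.8 kb upstream the OCT letters stood at bases 195 to 202 of the printed line and the SOX letters at bases 210 to 215, with 7 bases between them, and an AP-1 match stood at bases 3 to 9. The line is centred on the ESC summit, and of the time course summits of this region 0 of 7 with Nanog and 1 of 4 with NanogN70 lay within 150 bp of that summit, so these letters were not under most of the reprogramming summits. In the other printed elements, the NanogN70 summits within 150 bp numbered 5 of 5 at Klf4 68.1 kb, 1 of 3 at 55.0 kb and 6 of 10 at 51.9 kb, 1 of 1 at Klf2 2.9 kb and 1 of 4 at Klf5 41.2 kb, some libraries having several summits in a region. OCT letters were found in 3.53% of all regions and in 3.47% of ESC-only regions, in windows of the same length. The Klf4 elements held 1 match each, to SOX at 68.1 kb, KLF at 55.0 kb and TEAD at 51.9 kb. The Klf5 element 22.2 kb downstream, which never opened, held 4 KLF matches and 4 NFY matches, as well as a TEAD match that shared 1 base with a KLF match. The Klf2 element 2.9 kb upstream and the Klf5 element 41.2 kb downstream held no match to the 8 sets of letters. Among the 31 ESC-only regions 6 held KLF letters (19.4%), 7 SOX (22.6%), 6 NFY (19.4%), 5 TEAD (16.1%), 2 each OCT, ESRRB and AP-1 (6.45%) and none STAT. The shares over all ESC-only regions were 17.8% for KLF, 17.6% for SOX, 35.1% for NFY, 18.5% for TEAD, 1.52% for ESRRB, 8.83% for AP-1 and 1.04% for STAT, and over all regions 11.7%, 16.9%, 33.7%, 20.7%, 0.703%, 20.6% and 1.24%. A match is a description of the sequence and not a site.

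RefSeq promoters (GRCm38.p6) were found for 2 of the 3 genes. The Klf4 promoter is shown because its pileup separated the paths late in the time course. The 250 bases before the RefSeq start, on the minus strand, hold none of the motif letters.
Klf4 promoter, chr4:55532476-55532725: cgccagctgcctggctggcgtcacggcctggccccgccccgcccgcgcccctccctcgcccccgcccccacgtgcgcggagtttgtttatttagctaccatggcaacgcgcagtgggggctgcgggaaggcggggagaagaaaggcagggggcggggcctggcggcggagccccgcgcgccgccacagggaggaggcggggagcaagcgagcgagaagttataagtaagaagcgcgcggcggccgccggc
The 300-base promoter windows of Klf4 and Klf2, which reach 50 bases past the start, had GC contents of 74.3% and 69.3% and held none of the letters. The 300 bases at the highest ESC summit of the start regions held 1 KLF match at Klf2. At Klf5 they held 1 KLF and 1 NFY match, and at Klf4 none. No other form of a KLF sequence was searched. Among 32851 RefSeq promoters of this length 17.6% held KLF letters and 37.4% NFY letters. The gene without a RefSeq promoter here is Klf5.

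The other Klf genes were mostly open throughout, as promoters of 14 genes showed. A promoter peak was present for 13 in MEFs, for all 14 in each ESC library, for 11 to 13 with Nanog and for 12 or 13 with NanogN70. Of 13 tested, 2 had an unadjusted exact p under 0.05 and were higher with NanogN70 and 1 was lower, beside 6.83% and 6.24% of all promoters. These were Klf7 (0.22, 7 of 8 days higher), Klf10 (0.12, 6 days) and Klf9 (-0.31, 7 of 8 days lower), in mean log2 difference, named after their values were seen. None passed adjustment, which the smallest p of the exact test put almost out of reach. Klf8 had a promoter peak on 8 days with NanogN70, at 3 to 10 tags, and on 5 days with Nanog, at 6 to 14 tags, beside 2.81% of all promoters tested that had one on at least 3 more days with NanogN70 and 1.71% with Nanog. The median log2 difference over the 13 genes was 0.01, beside 0.03 over all promoters. The summed relative pileup of the 14 promoters with NanogN70 was 21.1, 22.3, 23.3 and 25.4 on days 7, 8, 10 and 12. With Nanog it was 22.3, 22.5, 21.8 and 23.0, so the sum was higher with NanogN70 on days 10 and 12 alone among these.

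Among 14 genes of LIF signalling and naive pluripotency, a promoter peak was found for 9 in MEFs, 11 to 13 in ESCs, 7 to 9 with Nanog and 7 to 13 with NanogN70, the 13 being on day 12. Of the 14 tested, 2 were higher and 1 was lower with NanogN70 at an unadjusted exact p under 0.05, beside 6.83% and 6.24% of all promoters. These were Jak1, the kinase of the LIF receptor (0.33, 7 of 8 days higher), Gbx2, a homeobox factor downstream of STAT3 (0.99, 6 days) and Tbx3, a T-box factor of the naive network (-0.67, lower on all 8 days), in mean log2 difference and named after their values were seen. Here too none passed adjustment, for the same reason of the smallest p. Esrrb and Nr0b1, nuclear receptors of ESCs, had a promoter peak on 3 days with NanogN70 (days 5, 7 and 12 for Esrrb and days 7, 10 and 12 for Nr0b1, at 6 to 8 tags) and on none with Nanog. The Nr0b1 promoter had 21, 18 and 18 tags in ESCs and none in MEFs, while the Esrrb promoter had 5 tags in MEFs and 7 tags in 1 of 3 ESC libraries. No gene of the list had a promoter peak on at least 3 more days with Nanog, beside the same 2.81% and 1.71% of all promoters. Lifr, the LIF receptor, had a promoter peak on 3 days with Nanog and 1 day with NanogN70. The median log2 difference of the list was 0.11.

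The 3 promoters followed different courses. Over the 20 libraries, Pearson's r of log2(relative pileup + 0.1) was 0.53 between Klf2 and Klf5, -0.32 between Klf2 and Klf4 and -0.03 between Klf4 and Klf5, given as a description because the libraries of a path come from 1 time course and differ in their pileup. Among 13467 other genes with a promoter peak in at least 10 libraries, the pattern of Klf4 was most like those of Ankrd13d (r = 0.86), Mettl9 (r = 0.84) and Chmp1a (r = 0.82). That of Klf2 was most like those of Cep128 and Tshr (r = 0.84 for both, with equal pileups in all 20 libraries) and Mospd2 (r = 0.83), and that of Klf5 most like those of Bicd1 (r = 0.91), Flrt3 (r = 0.91) and Knstrn (r = 0.90).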

How the data were processed

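Reads were trimmed by the authors with Trim Galore 0.6.4, aligned to mm10 with Bowtie2 2.4.5, cleared of repeated, poorly mapped and mitochondrial reads with SAMtools 1.16.1 and passed to MACS 1.4.2, which called peaks per library without a shift model and kept remaining duplicates. No input control is named. The score that the authors deposited for each peak is the MACS value of -10 times the base-10 logarithm of p, with a lowest value of 50. Summit files deposited by the authors give coverage (signal) as whole tags, unscaled to depth.

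From these lists, regions, classes and relative pileups were computed with Python 3.11.15, pandas 2.3.3 and NumPy 2.4.6 on 21 chromosomes. A promoter value was the highest summit pileup within 2 kb of the gene's 5 prime end, and 0 without a summit. Differences between the paths, paired by day, were tested with the two-sided exact sign-flip permutation test (256 patterns, smallest p 0.00781) with Benjamini-Hochberg adjustment over all promoters with a peak in the time course. The code of the test was run on simulated independent Poisson counts, without day trends or extra spread between libraries. That run cannot show how the test behaves on these data. Every library is 1 sample per day and path.

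Regions named were those holding the gene start, at most 5 distal ESC-only and 3 distal MEF-only regions per locus by score, regions open on at least 3 more days in one path, and at most 2 single-library regions per locus by pileup. The Klf5 region at 26.0 kb, the Klf4 region at -1.4 kb, the Klf2 regions at -39.6, 34.6 and 1.4 kb, and the regions at 17.6 kb of Klf4 and -78.9 kb of Klf2 fall outside this rule and were chosen after their values were seen. Members and lists were chosen with earlier results of these data known. Alternatives covered the yardstick, pseudocount, window, score minimum, start sites, classes and each day left out.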

Additional observations from a re-analysis of the deposited data

Results flagged for a closer look

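At Klf2, 7 regions had a peak in the NanogN70 day 3 library and in no other library, MEFs and ESCs included. They lay between 50.5 kb upstream and 32.4 kb downstream of the start and had 16 to 55 tags, beside a library median of 60 tags at the regions open in all 20 libraries. In the same library 14 of 15 T lymphocyte and 10 of 10 leukocyte marker promoters had a peak. The part of these in the 7 regions was not tested.

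A region in the last intron of Klf2, 1.4 kb after the start (chr8:72320299-72320586), had 20 tags on day 0 and 9 tags on day 1 of the NanogN70 path, and no peak in MEFs, in ESCs, in the Nanog path or on later days. Its relative pileups were 0.833 and 0.562. The value stands out because it appears in the NanogN70 libraries of the first days alone.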

How the results depend on the processing

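The difference in region-days of ESC-only regions, NanogN70 minus Nanog, was 7 at Klf2, 8 at Klf4 and 3 at Klf5. With peaks of a score of at least 100 it was 4, 5 and 0. With the same number of top-scoring peaks in each library it was 0 at Klf5, and within 40 kb of the start it was 0 at Klf4 and 0 at Klf5, since the window leaves out most of these elements. Leaving out each day in turn gave 3 to 8 at Klf2 (3 without day 12), 5 to 9 at Klf4 (5 without day 10) and 2 to 4 at Klf5. With regions merged from 200 bp windows at the summits, Klf4 had 20 region-days with NanogN70 and 14 with Nanog, in place of 14 and 6, a difference of 6. The differences under the other alternatives stayed within 1.5 times, and the cause of the changes with score was not tested. For the promoters, leaving out each day gave mean log2 differences of 0.13 to 0.31 at Klf2, 0.27 to 0.40 at Klf4 and -0.0065 to 0.16 at Klf5, where the sign turned without day 8. Without day 0 the Klf2 value was 0.31 (exact permutation p = 0.0469, adjusted p = 0.379). Over all 13 alternatives Klf4 kept its direction, at 0.27 to 0.47 with an exact permutation p of 0.00781 to 0.0547. No alternative gave any of the 3 promoters an adjusted exact p under 0.05. The smallest p of the test, higher still with a day left out, put this almost out of reach. Scaling to the median of all summits moved the median of all promoters from 0.03 to 0.15 and Klf2, Klf4 and Klf5 to 0.34, 0.47 and 0.17, with exact permutation p of 0.18, 0.0391 and 0.0469 and adjusted p of 0.714, 0.572 and 0.572. The days are the pairs of this design, and libraries of the same day are not shown to share a culture. With 1 library per day and path and unknown depth, a missing peak is not absence of accessibility.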

Other observations

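The shared element 17.6 kb downstream of Klf4, open in all 20 libraries, had a relative pileup of 1.72 in MEFs and 1.51 ± 0.16 (SD, n = 3) in ESCs. On days 0, 1, 3 and 5 it was 1.44, 1.19, 1.61 and 1.57 with Nanog and 1.17, 1.31, 0.8 and 1.04 with NanogN70. On days 7, 8, 10 and 12 it was 1.08, 1.03, 1.04 and 1.04 with Nanog and 1.03, 1.04, 1.04 and 0.951 with NanogN70. The paths thus lay close together on these days, on which the Klf4 promoter values were higher with NanogN70.

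A region 78.9 kb upstream of Klf2, at the start of Ap1m1, had relative pileups of 1.51 in MEFs and 1.56, 1.61 and 1.34 in ESCs. It was higher in every time course library, from 1.88 on day 1 to 3.43 on day 10 with Nanog and from 2.13 on day 1 to 3.15 on day 12 with NanogN70. Both regions were chosen after their values were seen, and no test was made.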
